A study of Anopheles gambiae with 8 samples.

Results

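Lipid carriers and enzymes of fatty acid metabolism were examined in *An. gambiae* Sua 4.0 cells after treatment with the steroid hormone 20-hydroxyecdysone (20E). The 7 genes, of 13763 in the count table, were given by their identifiers. They are lipophorin (AGAP001826), apolipophorin III (AGAP013365), vitellogenin (AGAP004203), the phosphatidylinositol transfer protein SEC14 (AGAP005385), a fatty acid CoA ligase (AGAP008596), a fatty acid amide hydrolase (AGAP011315) and glycerol-3-phosphate dehydrogenase (AGAP004437). Of these, 5 are among the genes that the study listed as changed in these same libraries, so their changes are not independent evidence. The other 2, lipophorin and vitellogenin, are not.

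Sua 4.0 is an established mosquito cell line with no genetic modification given in the labels. Cells received 20E at 1 μM in ethanol (20E group) or the solvent alone (EtOH group), and RNA was taken 24 h later. The ethanol is 10% in the labels and undiluted in the study's methods. Each group had 4 libraries, numbered 1 to 4, from independent experiments on this one cell line. Libraries held 6865599 to 14878014 counted fragments, with replicate 1 the lowest in both groups. As a check of the labels, the hormone-induced nuclear receptor *HR4* (AGAP004693) was at 124 ± 26.3 CPM in the 20E group and 0.228 ± 0.102 CPM in the EtOH group (SD, n = 4). Here CPM is the fragment count scaled to a common library size with edgeR's TMM factors. Of 11 blood cell genes (prophenoloxidases, complement-like factors and matrix proteins), 8 had counts in every library, while *LRIM1* was at 0 in all. Their summed level was 2441 to 5000.2 CPM after 20E and 1792 to 4254 CPM after EtOH. The matrix protein SPARC had the highest mean of the 11, 1847 CPM after 20E and 2645 CPM after EtOH. After EtOH, the prophenoloxidases PPO4 and PPO3 and the complement-like TEP1 averaged 283, 81.1 and 32.0 CPM. PPO2, PPO5, PPO6, PPO8 and PPO9 averaged only 0.357, 0.587, 0.0738, 0.884 and 1.14 CPM there. Libraries of the same replicate number resembled each other, and replicate 1 of both groups stood apart from the rest on the leading principal component, which held 46.2% of the variance.

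In mosquitoes, lipids travel in the hemolymph on lipoproteins. Lipophorin is the main one, made in the fat body, and it loads diacylglycerol and sterols at one tissue and unloads them at another. Apolipophorin III is a small exchangeable protein that joins lipophorin as it fills with lipid. Vitellogenin is a related large lipoprotein that becomes egg yolk, and its production in the fat body after a blood meal is a classic response to 20E. Inside cells, fatty acids are activated to acyl-CoA before they are stored or burned, and glycerol 3-phosphate supplies the backbone of stored fat and membrane lipids.

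Among the lipid carriers, lipophorin was higher and apolipophorin III lower after 20E in each of the 4 pairs of libraries, by 1.97-fold and 8.01-fold in the fit described next, whereas vitellogenin was slightly lower. Of the enzymes, the fatty acid CoA ligase was 3.67-fold higher, and the amide hydrolase and glycerol-3-phosphate dehydrogenase were 2.32-fold and 2.60-fold lower. SEC14 had the largest fold difference of the 7, 15.4-fold higher, and also the largest spread between replicates. All 7 were among the 8180 genes that passed the expression filter. The test by edgeR (quasi-likelihood, treatment alone) called 3 of the 7 at a limit of 0.1 on the Benjamini-Hochberg p, where 0.795% of all tested genes were called. All 3 were lower (apolipophorin III, amide hydrolase, glycerol-3-phosphate dehydrogenase), against 0.281% of all tested genes called lower. It called 0 higher, against 0.513% of all genes, although 3 had an unadjusted p under 0.05. In either direction, 6 of the 7 had an unadjusted p under 0.05 in this test, as had 557 of the 8180 tested genes. Of the other tests without a block, DESeq2 and edgeR's likelihood ratio test called 1 higher, edgeR's exact test 2 and limma-voom 0, and each called the same number lower as the quasi-likelihood test, 3. These tests called 2.09%, 1.80%, 1.47% and 0.758% of all genes. When replicate number was added as a block, the quasi-likelihood test called all 7, 3 higher and 4 lower. The background there was 8.34% of all genes called higher and 9.11% lower. The number called without the block fell to 1 without any one of 20E replicates 2, 3 and 4 or EtOH replicates 3 and 4, which was glycerol-3-phosphate dehydrogenase each time, and to 2 without EtOH replicate 1.

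**Figure D1:**
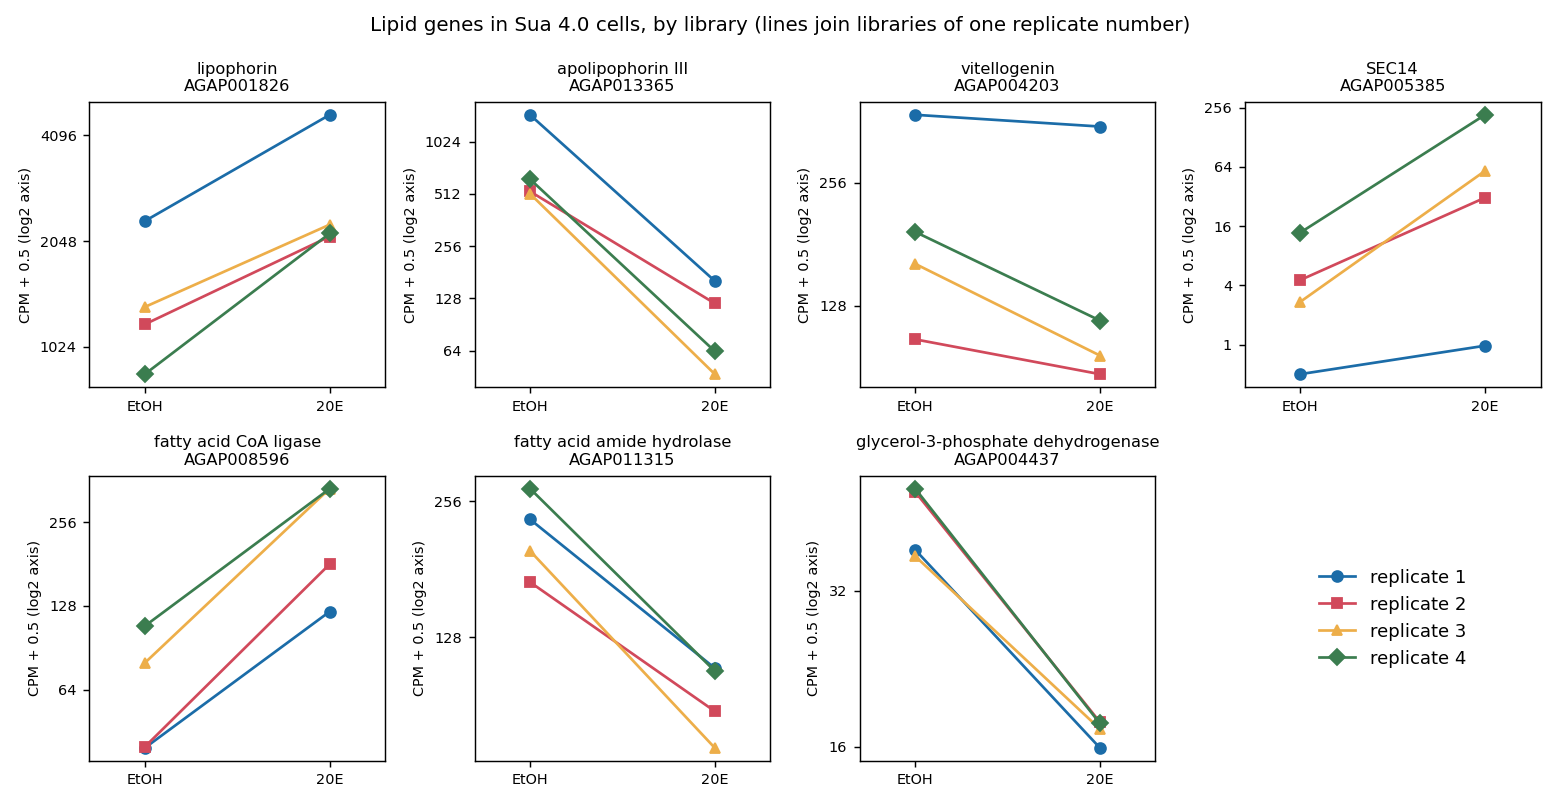
Level of the 7 lipid genes in each of the 8 libraries, as CPM + 0.5 on a log2 axis, with a line joining the EtOH and 20E libraries of the same replicate number. Within a gene the lines slope the same way while their heights differ, most of all for vitellogenin and SEC14, where replicate 1 lies at 351 and 375 CPM and at 0.472 and 0 CPM after 20E and EtOH.

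Lipophorin (AGAP001826) lies on 2R from 11116762 to 11163371 on the minus strand of AgamP4, and the listed span of 46610 bases holds introns as well as exons. Its level in replicates 1, 2, 3 and 4 was 4684, 2110.3, 2281 and 2152 CPM after 20E, and 2335, 1187, 1329.9 and 856 CPM after EtOH. Replicate 1 was highest in both groups, and its EtOH library lay above 3 of the 4 20E libraries, so the groups overlapped. Within pairs, the level after 20E was always higher, with log2 ratios of 1.0, 0.83, 0.78 and 1.33 (mean 0.99 ± 0.25, SD, n = 4). A rise in all 4 pairs was seen in 17.0% of tested genes. In edgeR's quasi-likelihood fit the log2 fold change had an estimate of 0.98 with a standard error (SE) of 0.38, which was not called without the block (adjusted p = 0.609). Under the block edgeR put it at 0.99 (SE 0.12, adjusted p = 7.36e-04). Without replicate 1 in both groups, a setting added after the values were seen, the log2 fold change was 0.96 and its adjusted p in edgeR 0.207. In these bulk samples, more cells of a kind and more RNA per cell cannot be told apart.

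Apolipophorin III (AGAP013365) lies on the plus strand of 2R from 33372135 to 33373038. Its level was 161, 119, 46.5 and 63.1 CPM in 20E replicates 1 to 4, and 1458, 528, 512 and 622 CPM in EtOH replicates 1 to 4. The highest 20E library thus lay well below the lowest EtOH library. All 4 20E libraries were below all 4 EtOH libraries in 2.56% of tested genes. The log2 ratio within pairs was -3.18, -2.14, -3.45 and -3.29, and pair 2 had the smallest change. Its estimated log2 change was -3.0 (SE 0.51, edgeR adjusted p = 0.0515). A larger absolute log2 fold change was found in 0.318% of tested genes. Without 20E replicates 2, 3 and 4 and EtOH replicates 3 and 4, each in turn, the adjusted p from edgeR was 0.150, 0.128, 0.192, 0.115 and 0.161, so the call was lost. Under the block it was -3.02 (SE 0.20) and lay between -3.31 and -2.88 when single pairs were left out.

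Vitellogenin (AGAP004203, 2R, plus strand, 51786017 to 51792488) was measured at 351, 86.5, 96.2 and 117 CPM in the 20E replicates and at 375, 105, 162 and 194 CPM in the EtOH replicates. The yolk protein gene was therefore expressed in these cells in both groups, which overlapped almost completely. Replicate 1 was far above the others with or without the hormone. The log2 ratio within pairs was -0.10, -0.28, -0.75 and -0.72, lower after 20E in 4 of 4 pairs, a pattern of 16.2% of tested genes. The log2 fold change of -0.36 (SE 0.53) was not called by edgeR's quasi-likelihood test (adjusted p = 0.999). Its approximate 95% interval ran from -1.57 to 0.84, and so held changes in either direction. Without EtOH replicate 1 the estimate was 0.08, the reverse direction, and without 20E replicate 1 it was -1.06. Each of these fits kept the high replicate 1 library of the other group, so they do not show the change within pairs. With the block the estimate was -0.46 (SE 0.12, adjusted p = 0.0385, edgeR). It stayed negative, between -0.59 and -0.37, when single pairs were left out of that fit. It was not called there without pair 3 (edgeR adjusted p = 0.172) or pair 4 (edgeR adjusted p = 0.153).

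The carriers thus differed in how far treatment and replicate number accounted for their variation. On the log2(CPM + 0.5) scale, treatment held 83.8% of the sum of squares over the 8 libraries for apolipophorin III, 49.1% for lipophorin and 9.0% for vitellogenin. The replicate number held 13.8%, 48.5% and 87.7% in that order. Without replicate 1 in both groups, computed after these values were seen, treatment held 93.0% for apolipophorin III, 86.5% for lipophorin and 50.5% for vitellogenin. Within each group, all 3 carriers were highest in replicate 1. Replicate 1 also had the lowest depth. Of the blood cell genes, the matrix proteins collagen IV and SPARC were highest there in both groups. Collagen IV had 2471 CPM in the 20E library and 217 CPM in the EtOH library. By contrast, PPO3, PPO4, PPO8, PPO9 and TEP1 were lowest in replicate 1 of the 20E group. In the EtOH group PPO4, PPO8 and PPO9 were highest in replicate 1. The part of depth or of the blood cell genes in these levels was not tested.

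**Figure D2:**
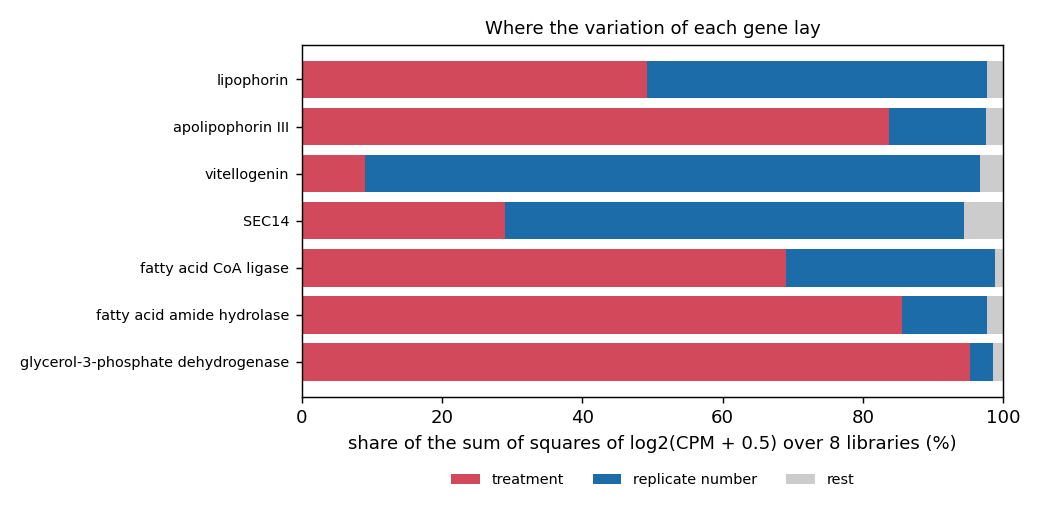
Share of the sum of squares of log2(CPM + 0.5) over 8 libraries that went with treatment, with replicate number and with neither, for each of the 7 genes. Treatment took most of the bar for glycerol-3-phosphate dehydrogenase (95.2%) and least for vitellogenin (9.0%), and the rest was at most 5.66%, for SEC14, where replicate 1 had 3 and 0 counts.

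SEC14 (AGAP005385, 2L, minus strand, 14842244 to 14843478) belongs to proteins that carry phosphatidylinositol between membranes, a role worked out in yeast. Its counts were 3, 442, 956 and 2797 in 20E replicates 1 to 4, and 0, 43, 29 and 146 in EtOH replicates 1 to 4. These correspond to 0.472, 30.6, 57.6 and 215 CPM after 20E and to 0, 4.02, 2.21 and 13.2 CPM after EtOH. Replicate 1 held almost no SEC14 fragments in either group, and replicate 4 was the highest in both. A count of 0 in EtOH replicate 1 allows a level of up to 0.427 CPM (3 counts, counting error only), so no ratio is given for pair 1. In pairs 2, 3 and 4 the log2 ratio was 2.78, 4.42 and 3.98 (mean 3.73 ± 0.85, SD, n = 3).

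The shares of variation for SEC14 depended on replicate 1, whose values of 3 and 0 counts are set largely by the added 0.5 CPM. With it, the replicate number held 65.3% of the sum of squares and treatment 29.0%, and without it, 22.4% and 75.0%. Its estimate of 3.94 (SE 1.45) was not called by edgeR's quasi-likelihood test without the block (adjusted p = 0.580). The estimate was 2.59 without 20E replicate 4 and 5.13 without EtOH replicate 4. With the block it was 3.90 (SE 0.25, adjusted p = 1.74e-05, edgeR). Without pair 1 the blocked estimate was 3.91, but at 3 and 0 counts that pair had little weight in the fit. The blocked estimate was 4.27 without pair 2, 3.59 without pair 3 and 3.80 without pair 4. Without the block, the exact test of edgeR called SEC14 (adjusted p = 0.0596), and DESeq2 did not (adjusted p = 0.423).

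**Figure D3:**
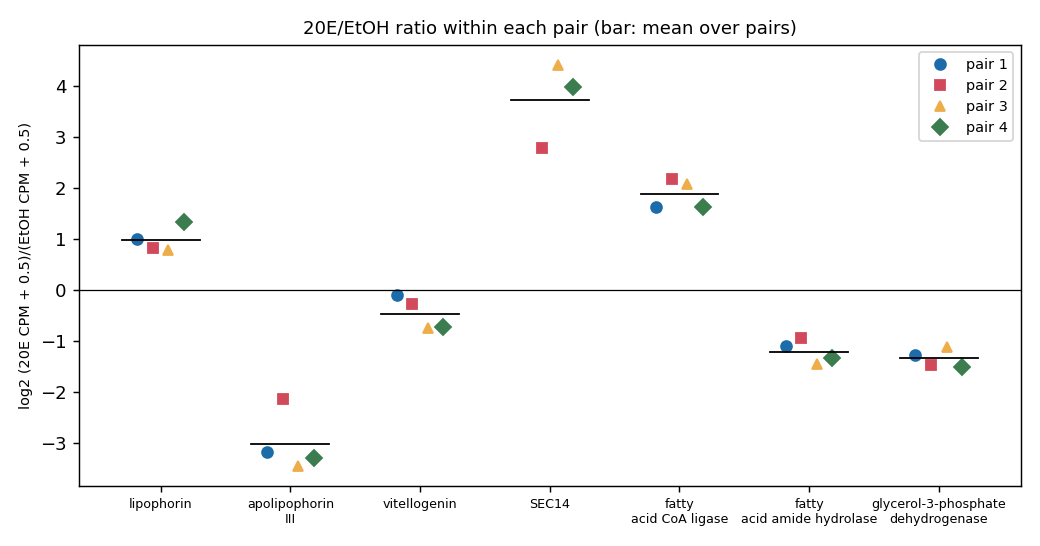
log2 ratio of 20E over EtOH, from CPM + 0.5, within each pair of libraries of the same replicate number, with a bar at the mean over pairs. Points of a gene lie on one side of 0 for all 7, from -3.45 for apolipophorin III to 4.42 for SEC14; pair 1 of SEC14 is left out because neither library had more than 3 counts.

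The fatty acid CoA ligase AGAP008596 (3R, minus strand, 13468585 to 13491630) is annotated in the study as a long-chain enzyme of the ACSBG type, which joins fatty acids to coenzyme A. Its level in replicates 1 to 4 was 122, 180.4, 337 and 337 CPM after 20E and 39.1, 39.4, 79.4 and 108 CPM after EtOH. Every 20E library was above every EtOH library, which held for 2.18% of tested genes. The pair ratios were alike, at 1.63, 2.18, 2.08 and 1.64 on the log2 scale (mean 1.88 ± 0.29, SD, n = 4). edgeR estimated a log2 change of 1.88 (SE 0.45, adjusted p = 0.184) in its quasi-likelihood test without the block, which was not called, and of 1.89 (SE 0.12, adjusted p = 1.74e-05) under it. Without the block, DESeq2 (adjusted p = 0.00332) and the likelihood ratio (0.00694) and exact (0.00154) tests of edgeR called it.

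The amide hydrolase AGAP011315 (3L, plus strand, 20934873 to 20942050) is annotated as fatty acid amide hydrolase 2, an enzyme type known in mammals for breaking down lipid signals such as anandamide. Its level was 109, 87.4, 72.4 and 107 CPM in the 20E replicates and 233, 169, 198 and 273 CPM in the EtOH replicates. The groups did not overlap, and the pair ratios of -1.09, -0.95, -1.45 and -1.34 differed little. The estimate of -1.22 (SE 0.20) was called by edgeR (adjusted p = 0.0515). The call was lost without 20E replicates 2, 3 and 4 and EtOH replicates 1, 3 and 4, each left out in turn, at adjusted p of 0.176, 0.137, 0.144, 0.117, 0.141 and 0.181 in edgeR. With the block the estimate was -1.21 (SE 0.11), and 4 of 4 fits without single pairs called it.

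Glycerol-3-phosphate dehydrogenase AGAP004437 (2R, plus strand, 55996972 to 56006061) interconverts glycerol 3-phosphate and dihydroxyacetone phosphate, and so links sugar breakdown with lipid synthesis. Its level was 15.4, 17.4, 16.8 and 17.3 CPM in the 20E replicates and 37.9, 49.2, 36.9 and 50.0 CPM in the EtOH replicates. The 20E libraries were nearly equal, with a coefficient of variation of 5.33%, below the 7.46% that counting error alone would give at these counts. The EtOH libraries varied by 16.2%, against 4.88% from counting. Its estimate of -1.38 (SE 0.17, edgeR adjusted p = 0.0136) ranked 10 by p among all tested genes. It was the member that each of the 8 fits without a single library called, with adjusted p from 0.0227 to 0.0745 in edgeR. The pair ratios were -1.27, -1.48, -1.11 and -1.51.

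Levels were compared between genes per kilobase of the listed gene span, which includes introns and so understates genes with long introns. After EtOH the order of the group means was apolipophorin III (863 CPM per kb), vitellogenin (32.3), lipophorin (30.6), amide hydrolase (30.4), glycerol-3-phosphate dehydrogenase (4.79), SEC14 (3.94) and the CoA ligase (2.88). Apolipophorin III ranked 1 in all 4 EtOH libraries, and its lowest library (567 CPM per kb) was above every library of the others. The next 3 overlapped in their library ranges, as did the last 3. After 20E the order was apolipophorin III (108 CPM per kb), SEC14 (61.6), lipophorin (60.2), vitellogenin (25.2), amide hydrolase (13.1), CoA ligase (10.6) and glycerol-3-phosphate dehydrogenase (1.84). Apolipophorin III no longer stood clear there, since SEC14 was at 174 CPM per kb in replicate 4 and apolipophorin III at 69.8. Each neighbouring pair in the 20E order overlapped except the last, where the lowest CoA ligase library (5.28) was above the highest glycerol-3-phosphate dehydrogenase library (1.91).

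**Figure D4:**
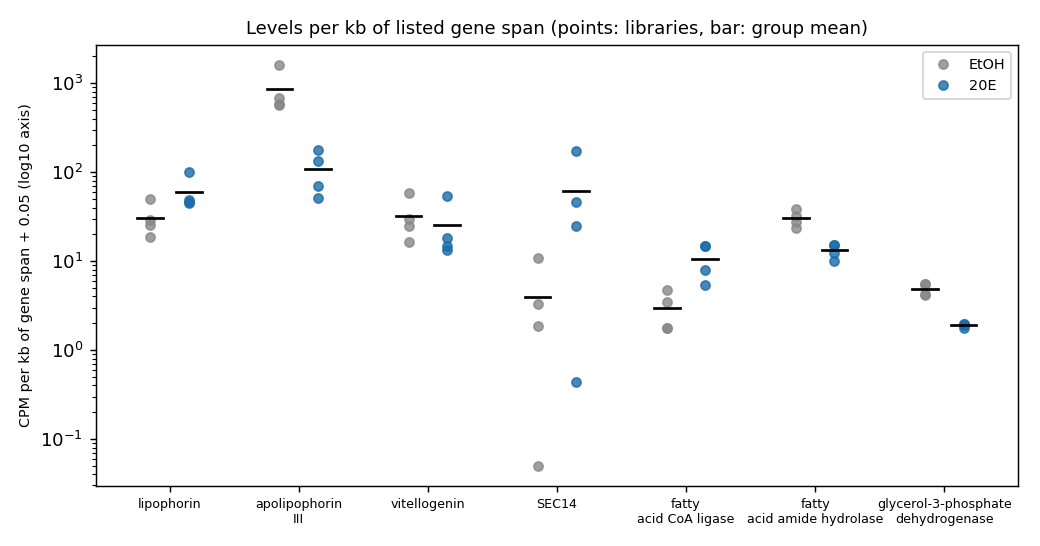
Level per kilobase of listed gene span (CPM per kb + 0.05, log10 axis) for the 7 genes, with a point for each library and a bar at each group mean, EtOH in grey and 20E in blue. Apolipophorin III falls from 863 to 108 CPM per kb on average, and SEC14 covers the widest range, from 0.382 to 174 CPM per kb after 20E.

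Genes next to the members were examined because the counts cover whole gene spans. The CoA ligase overlaps AGAP008597 on the opposite strand by 75 bases, and the strand setting of the counting is not given in the sources used here. AGAP008597, which the sources leave without a name, had 56, 370, 1255 and 204 counts in the 20E replicates and 19, 55, 102 and 20 in the EtOH replicates. It was higher after 20E in 4 of 4 pairs, at an estimate of 2.84 (SE 0.72) that edgeR did not call without the block (adjusted p = 0.235) and called under it (adjusted p = 1.18e-04). The ligase had 773, 2608, 5598 and 4374 counts in the same 20E libraries, and whether fragments of the overlap were counted for both genes was not tested. AGAP008593, a leucine-rich repeat protein 1903 bases away, also had a positive estimate, of 2.0 (SE 0.66, edgeR adjusted p = 0.487). It was higher in 4 of 4 pairs and was called under the block (edgeR adjusted p = 0.00122). AGAP008598, 2742 bases away on the same strand, had a smaller estimate of 0.31 (SE 0.14, edgeR adjusted p = 0.744). It too was higher in 4 of 4 pairs and called under the block (edgeR adjusted p = 0.0528). Of all tested genes, 17.4% were called under the block, and 17.0% were higher and 16.2% lower in 4 of 4 pairs.
AGAP005386 lies 676 bases from SEC14 on the opposite strand and showed a like pattern over libraries. It had 0, 95, 92 and 384 counts in the 20E replicates and 0, 1, 5 and 6 in the EtOH replicates. Replicate 1 again had none, and replicate 4 the most. It was not among the genes that passed the filter. In the unfiltered edgeR fit its adjusted p was 0.274 without the block and 1.14e-08 under it. AGAP005384, 822 bases from SEC14, had 0, 1, 2 and 11 counts in the 20E replicates and 0 over the EtOH libraries. Most of its counts thus came from 20E replicate 4. The unfiltered edgeR fit did not call it, at an adjusted p of 0.838 without the block and 0.208 under it.
Both neighbours of apolipophorin III were lower after 20E in 4 of 4 pairs. AGAP013060, 2002 bases away on the same strand, was at 114, 24.6, 8.74 and 10.6 CPM in the 20E replicates and 289, 53.9, 64.3 and 74.2 CPM in the EtOH replicates, with replicate 1 the highest in both groups. AGAP003151, 8012 bases away, had an estimate of -1.01 (SE 0.23). Neither was called without the block, at adjusted p of 0.945 and 0.160 in edgeR's quasi-likelihood test, and both were called with it (0.00159 and 0.00326). For the amide hydrolase, lipophorin, vitellogenin and glycerol-3-phosphate dehydrogenase, the tested neighbours had log2 fold changes between -0.04 and 0.22, and none was called with or without the block in edgeR's quasi-likelihood test. AGAP004202, 962 bases from vitellogenin on the opposite strand, had too few counts to pass the filter, 6, 13, 9 and 22 in the 20E replicates and 2, 4, 1 and 3 in the EtOH replicates. Its level was higher after 20E in 4 of 4 pairs, the opposite direction to vitellogenin, and the unfiltered edgeR fit gave it an adjusted p of 0.576 without the block and 0.0743 under it.

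A further 9 genes with lipid-related names were taken from the study's own table of changed genes, so they were selected on these libraries and their counts restate that choice. All 9 passed the filter. edgeR's quasi-likelihood test without the block called 2 higher and 2 lower, and with the block it called 5 higher and 4 lower, where 0.795% and 17.4% of all tested genes were called. Without the block, DESeq2 and the likelihood ratio test called 4 higher and 4 lower, the exact test 3 and 4, limma-voom 2 and 3, and the quasi-likelihood test at a limit of 0.05 called 1. Diacylglycerol O-acyltransferase 1 (AGAP007843), which makes the last step of triacylglycerol synthesis, rose from 96.7 ± 14.8 to 192 ± 34.0 CPM (SD, n = 4, adjusted p = 0.0756 in edgeR). A cellular retinaldehyde binding protein (AGAP008165), of the same lipid-binding domain family as SEC14, rose from 10.3 ± 6.79 to 174 ± 81.3 CPM (SD, n = 4, adjusted p = 0.0339 in edgeR). Choline/ethanolamine kinase (AGAP007957), which starts phospholipid head group synthesis, fell from 625 ± 225 to 212 ± 63.9 CPM (SD, n = 4, adjusted p = 0.0882 in edgeR). Succinyl-CoA transferase (AGAP006096), which serves the use of ketone bodies, fell from 157 ± 37.3 to 80.2 ± 5.56 CPM (SD, n = 4) with the same adjusted p of 0.0882 in edgeR. The number called without the block was 2 without 20E replicate 1, 2 or 3, 1 without 20E replicate 4 or EtOH replicate 1 or 3, 3 without EtOH replicate 2 and 0 without EtOH replicate 4.
In all 9 of these genes the groups did not overlap, which restates how the study chose them. Of all tested genes, 2.18% had every 20E library above every EtOH library and 2.56% had every one below. The quasi-likelihood test called the other 5 of these genes with the block and not without it. A fatty acid binding protein (AGAP013400), an intracellular carrier, was at 471 ± 116 CPM in the 20E group and 253 ± 17.0 CPM in the EtOH group (SD, n = 4). An acyl-CoA dehydrogenase (AGAP028164), of fatty acid oxidation, had 72.8 ± 35.5 and 226 ± 54.6 CPM, and ethanolaminephosphotransferase (AGAP008631), of membrane lipid synthesis, 54.3 ± 11 and 124 ± 43.0 CPM. The second retinaldehyde-binding protein (AGAP009381) had almost the same log2 ratio in each pair, 1.55, 1.37, 1.49 and 1.40. A lipocalin annotated as lipoprotein Blc (AGAP002593) had pair ratios of 0.60, 0.52, 1.31 and 1.49.

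**Figure D5:**
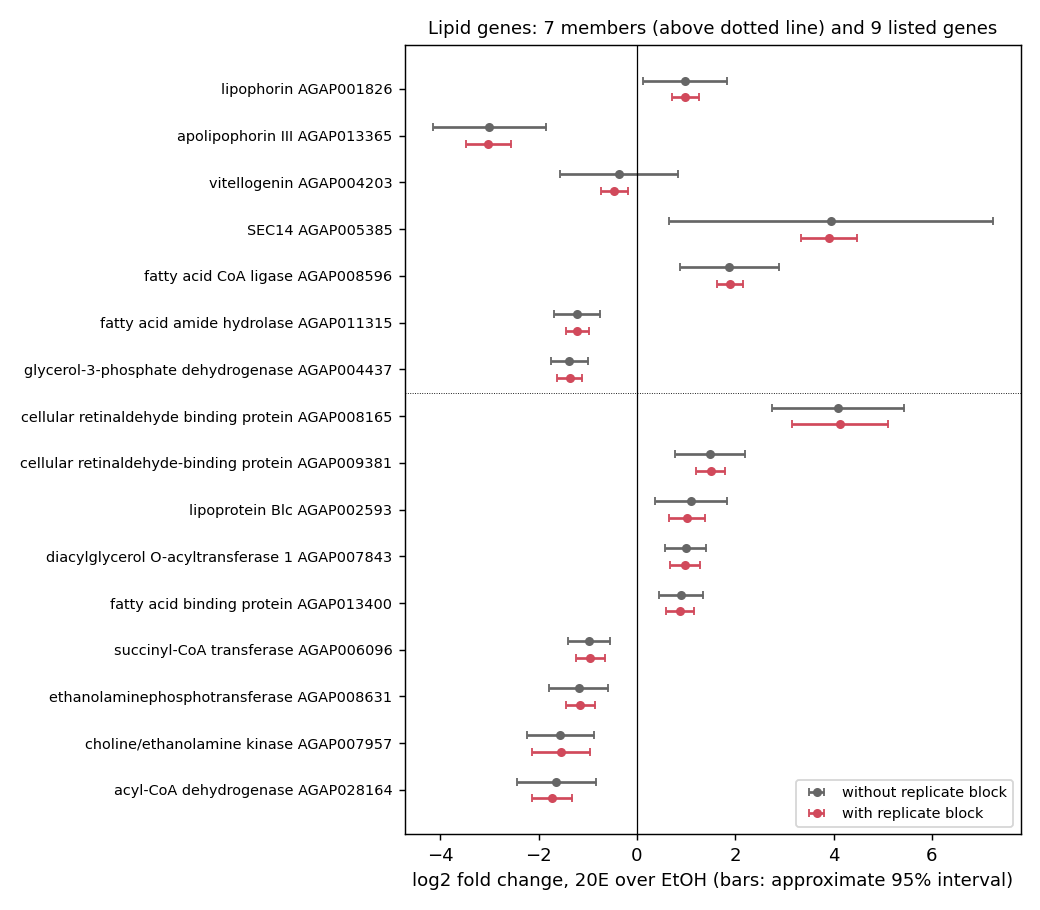
log2 fold change of 20E over EtOH for the 7 lipid genes and, below the dotted line, the 9 listed lipid genes, without (grey) and with (red) the replicate block; bars are approximate 95% intervals from edgeR's quasi-likelihood test. The estimates hardly differ between the fits, while the interval of SEC14 shrinks from 0.65 to 7.23 to 3.34 to 4.47 and only that of vitellogenin, without the block, spans 0.

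Likeness in pattern was described by the Pearson correlation of log2(CPM + 0.5) over the 8 libraries, which are 4 pairs in 2 treatment groups and thus not independent. The closest of all tested genes reached a correlation of 0.961 to 0.983, depending on the member. For the amide hydrolase it was the organic cation transporter AGAP010509 (0.974), followed by methylmalonate-semialdehyde dehydrogenase AGAP002499 (0.970) and the glucose transporter AGAP003492 (0.960). For apolipophorin III it was the cytochrome P450 AGAP008018 (0.975), then AGAP005080 (0.974) and AGAP005247 (0.971). The genes closest to lipophorin were AGAP003935 (0.983), AGAP001407 (0.971) and AGAP004991 (0.969), and those closest to vitellogenin AGAP005769, AGAP003730 and AGAP001971 (0.981, 0.981 and 0.980). SEC14 was most like AGAP006404 (0.961), AGAP004244 (0.954) and AGAP008712 (0.951), the CoA ligase most like AGAP006055, AGAP004634 and AGAP006590 (0.966, 0.966 and 0.966), and glycerol-3-phosphate dehydrogenase most like AGAP009607 (0.983), AGAP012097 (0.975) and AGAP000429 (0.974). No member was among the closest 3 of another. Correlations between members ran from -0.925 (CoA ligase and apolipophorin III) to 0.921 (amide hydrolase and apolipophorin III).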

How the data were processed

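The authors mapped read pairs (stranded mRNA libraries) with STAR 2.5.2b to the AgamP4 genome and counted them per gene with featureCounts, leaving out multimapped and chimeric reads. They deposited whole-number counts, not normalized, for 13763 genes. The listed length equals the gene span in 100% of genes. Replicate numbers came from the sample titles.

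The 7 genes and all lists were chosen with earlier results of these data known. Counts were tested with edgeR 4.0.16 in R 4.3.3 (quasi-likelihood, TMM, filterByExpr with minimum count 10 and total 15, 8180 genes, Benjamini-Hochberg), treatment as the only term, called at an adjusted p of at most 0.1. Each SE was derived from the estimate and its F statistic, so it restates the test. Pair ratios used CPM + 0.5. Limits from counts of 0 are 3 counts. Alternatives were DESeq2 1.42.0, limma-voom (limma 3.58.1), other edgeR tests, scalings, filters, a limit of 0.05, the replicate block and single libraries left out. The fits were also run on simulated data, and the outcome is not reported here.

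Same-numbered libraries came from the same experiment by the series text, and their deviations from the group means correlated at 0.848, 0.752, 0.816 and 0.663 over 8180 genes, against at most 0.0791 for other combinations. The numbers therefore pair the libraries. Without the block, p-values set the change against the spread between cultures of 1 cell line and leave the pairing out. With the block, they set it against the spread left after differences between pairs are removed. Genes named were the members, their neighbours, the 9 lipid-named genes of the study's table and the 3 most correlated genes per member. The reference table held no product names for these identifiers, so lipid classes by product name and coding lengths were not used here.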

Additional observations from a re-analysis of the deposited data

Results flagged for a closer look

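Within each group of 4 libraries, the highest or lowest level was set against the others, for the 7 lipid genes and the 9 listed ones. A library was noted where its gap to the nearest one took more of the group's range than Dixon's 95% limit for 4 libraries allows. Chance gives about 1 in 20 groups, and 5 of 32 were noted. Replicate 1 was the library in 3 of them. Apolipophorin III (AGAP013365) had 1458 CPM in EtOH replicate 1, against 512 to 622 CPM in the others. Lipophorin (AGAP001826) had 4684 CPM in 20E replicate 1, against 2110.3 to 2281 CPM. Vitellogenin (AGAP004203) had 351 CPM in 20E replicate 1, against 86.5 to 117 CPM. Ethanolaminephosphotransferase (AGAP008631) had 37.8 CPM in 20E replicate 3, against 58.9 to 60.3 CPM. Lipoprotein Blc (AGAP002593) had 34.7 CPM in EtOH replicate 4, against 24.5 to 25.2 CPM.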

How the results depend on the processing

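Over 175 estimates for the 7 genes, 174 kept their direction and the exception was vitellogenin (AGAP004203), whose log2 fold change was 0.081 without EtOH replicate 1 and ran from -1.06 upward without other single libraries; 13 lost a call, 34 gained one and 127 stayed on their side of the limit. The number of all genes called, 65, was 195 with DESeq2, 147 with the likelihood ratio test, 120 with the exact test, 32 at a limit of 0.05, and 16 to 64 with single libraries left out. Of the 7, 3 were called, 5 with the exact test, 1 at 0.05, and 1 to 3 with single libraries left out. The replicate block called 1427 genes and 7 of the 7, and 1540 and 7 without a filter. In settings added after the values were seen, the block gave 1290 genes and 7 with DESeq2, 1592 and 7 with limma-voom, and 1277, 1235, 846 and 863 genes without pairs 1 to 4, with 6 to 7 of the 7. The cause of these differences was not tested. Counts per kb of coding length and lipid classes by product name were not run. SEC14 and the genes next to it had too few counts in replicate 1 for a ratio.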
